A study of Mus musculus with 12 samples.

Results

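The 40 genes described here are interferon response genes outside the guanylate-binding protein (Gbp) family, taken by symbol from the 23284 genes of the deposited count table. The list was drawn up with earlier results of these data known. All 40 were present and all 40 passed the low-count filter that kept 14832 genes for testing. RNA sequencing had been carried out on all cells of the mandibular condylar fibrocartilage, the fibrous and cartilaginous cover of the jaw joint's condyle, of female C57BL/6 mice. The mice were ovariectomized at 16 weeks of age, which removes the main source of estrogen, and for 1 week carried either a placebo pellet or a pellet holding 0.01 mg of 17β-estradiol (E2) with a 60-day release, so that tissue was taken at 17 weeks. The 12 libraries fell into 4 groups, all of them ovariectomized: wild-type (WT) with placebo (n = 2), WT with E2 (n = 3), estrogen receptor alpha knockout (ERalphaKO) with placebo (n = 4) and ERalphaKO with E2 (n = 3). The study asked how E2 acts on gene expression in this tissue through estrogen receptor alpha. The labels do not say which part of Esr1, the gene of that receptor, the knockout removes. They also do not tie each replicate to an animal of its own, and p-values then measure the spread between these samples, which may be technical in part.

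Interferons are cytokines that cells release on sensing viral nucleic acid or immune activation. Type I interferons signal through the receptor Ifnar1 and Ifnar2 and the kinases Jak1 and Tyk2 to a complex with Stat2 and Irf9, which binds the interferon-stimulated response element (ISRE). Type II interferon signals through Ifngr1 and Ifngr2, and its target genes carry the gamma-activated site (GAS). The genes so induced encode sensors of viral RNA, proteins that block viral entry, translation or budding, guanosine triphosphatases (GTPases) that act on the vacuoles of intracellular pathogens, and the machinery that loads peptides on class I molecules. Most of them are also transcribed at a low level in uninfected tissue, and macrophages and other immune cells usually hold more of these transcripts than connective tissue cells do.

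Binding elements of this pathway were looked for in the promoters of the 40 genes. RefSeq promoter sequences of build GRCm38.p6 were found for 31 of the 40 genes, with 37 promoters in all, each reaching from 250 bases before the start to 50 bases after it, and Oas2, Usp18, Mx1, Mx2, Dhx58, Iigp1, Rtp4, Parp14 and Zbp1 were not matched. The search covered 2 cores on both strands: the ISRE core GAAANNGAAA (reverse complement TTTCNNTTTC) and the GAS core TTCNNNGAA, which is its own reverse complement, with overlapping matches allowed. The ISRE core stood in 15 of the 37 promoters (40.5%) and in 1131 of all 32851 promoters of the table (3.44%). The GAS core stood in 10 of the 37 (27.0%) and in 2726 of all (8.30%), and 4 genes (Bst2, Igtp, Irgm2 and Oas1a) held both. Of the 31 genes, 16 held no ISRE core in this window, Irf8 and Ifi44 among them. The last 150 bases before the start of 6 genes that hold the ISRE core are printed here, 5′ to 3′ on the gene's own strand, with ISRE cores in capitals. They were chosen as the ubiquitin-like modifier that gives the response its best-known marker (Isg15), 4 genes with low p-values in several comparisons (Bst2, Oas1a, Irgm1 and B2m) and a GTPase gene with both cores (Igtp).
Isg15: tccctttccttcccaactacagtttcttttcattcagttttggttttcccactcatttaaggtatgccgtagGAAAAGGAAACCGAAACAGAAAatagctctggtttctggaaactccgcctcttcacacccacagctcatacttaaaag
Bst2: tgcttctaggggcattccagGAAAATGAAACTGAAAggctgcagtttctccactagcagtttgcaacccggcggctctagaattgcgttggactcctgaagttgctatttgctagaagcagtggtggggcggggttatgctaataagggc
Oas1a: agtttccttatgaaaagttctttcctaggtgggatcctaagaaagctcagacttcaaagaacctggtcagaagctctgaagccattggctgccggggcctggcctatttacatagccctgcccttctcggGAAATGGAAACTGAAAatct
Irgm1: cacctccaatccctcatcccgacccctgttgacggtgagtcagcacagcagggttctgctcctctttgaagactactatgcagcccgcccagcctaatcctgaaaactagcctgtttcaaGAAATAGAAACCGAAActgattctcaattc
B2m: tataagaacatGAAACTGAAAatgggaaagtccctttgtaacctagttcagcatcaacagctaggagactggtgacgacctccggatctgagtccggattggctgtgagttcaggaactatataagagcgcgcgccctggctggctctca
Igtp: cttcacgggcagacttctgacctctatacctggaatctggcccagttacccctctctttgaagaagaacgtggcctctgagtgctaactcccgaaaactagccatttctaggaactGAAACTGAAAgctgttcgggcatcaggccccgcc
These stretches are chr4:156200819-156200968 (minus strand) for Isg15, chr8:71537473-71537622 (minus strand) for Bst2, chr5:120907526-120907675 (minus strand) for Oas1a, chr11:48871421-48871570 (minus strand) for Irgm1, chr2:122147537-122147686 (plus strand) for B2m and chr11:58199406-58199555 (plus strand) for Igtp. In Isg15 3 cores overlap end to end from 78 bases before the start, and in Bst2, Oas1a and Irgm1 2 cores overlap, beginning 130, 20 and 30 bases before it. B2m has 1 core, 139 bases before its start, and Igtp has 1, 34 bases before it. A match is a description of the letters, and the libraries do not measure binding.

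Levels are given in CPM, a gene's count scaled to a fixed library total, with library totals scaled by the trimmed mean of M values. The libraries held 9696434 to 28750636 counts, and 1 count was worth 0.0366 to 0.105 CPM. Esr1 stood at 17.5 and 14.2 CPM in WT placebo, 10.6, 8.52 and 12.04 CPM in WT E2, 3.65, 5.68, 4.03 and 5.15 CPM in ERalphaKO placebo and 5.66, 5.78 and 4.55 CPM in ERalphaKO E2, so every library labelled ERalphaKO lay below every WT library. The 12 fibrocartilage markers were all detected, and their summed level lay between 74258 and 116159 CPM in every library. The libraries also held RNA of blood, marrow and muscle in unequal amounts: granulocyte markers summed to 69.02 to 866 CPM in WT placebo, 2.82 to 1137 in WT E2, 25.8 to 16942 in ERalphaKO placebo and 14.8 to 6967 in ERalphaKO E2, and muscle markers reached 5533 CPM in 1 library. In bulk tissue, fewer cells of a type and less RNA per cell cannot be told apart.

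Across the 40 genes, 2 libraries stood apart, WT E2 replicate 3 and ERalphaKO placebo replicate 3. WT E2 replicate 3 was above the other libraries of its group in 39 of the 40 genes, against 39.1% of all genes tested, and ERalphaKO placebo replicate 3 in 38 of the 40, against 37.4%. In 28 of the 40 genes these 2 libraries were the 2 highest of all 12, which was so for 3.22% of all genes tested. WT E2 replicate 3 was the highest of the 12 libraries in 24 of the 40 genes, against 12.1% of all genes tested, and ERalphaKO placebo replicate 3 in 14, against 20.5%. Irf8 was highest in ERalphaKO placebo replicate 1 and Ddx60 in ERalphaKO E2 replicate 1. Against the mean of the other libraries of its group, WT E2 replicate 3 held a median of 1.91 times their level, from 0.886 times for Isg20 to 5.29 times for Oas3, and ERalphaKO placebo replicate 3 a median of 2.16 times, from 0.937 times for Ifit2 to 10.6 times for Oas3. As a median over the genes of the deviation from each gene's mean log2 level, the libraries lay at -0.070 and -0.44 in WT placebo, 0.16, -0.19 and 0.87 in WT E2, -0.039, -0.33, 0.92 and -0.0097 in ERalphaKO placebo and 0.043, -0.49 and -0.37 in ERalphaKO E2. The 10 other libraries lay between -0.49 and 0.16.

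**Figure D1:**
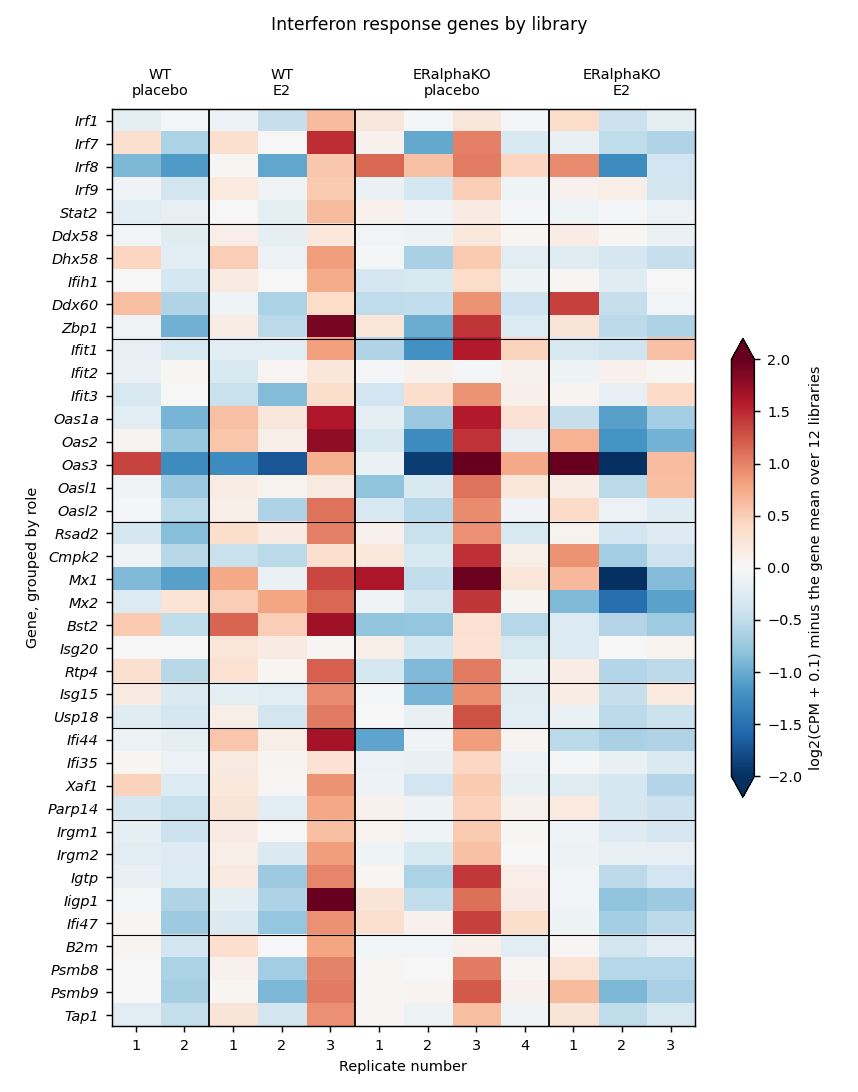
Level of the 40 genes in each of the 12 libraries, as log2(CPM + 0.1) minus the gene's mean over the 12 libraries, with genes in rows grouped by role and libraries in columns grouped by genotype and treatment. The columns of WT E2 replicate 3 and ERalphaKO placebo replicate 3 are red in most rows, and they are the 2 highest columns in 28 of the 40 genes.

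Both libraries were high in every role group, though not to the same degree. In WT E2 replicate 3 the median deviation from the gene mean was 1.15 (log2) for the antiviral effectors outside the Ifit and Oas families, 0.99 for Isg15 and its protease, 0.96 for class I antigen processing, 0.92 for the immunity-related GTPases and 0.64 for the transcription factors. In ERalphaKO placebo replicate 3 the Ifit and Oas families stood highest at 1.26, followed by the immunity-related GTPases and by Isg15 with its protease, both at 1.10, with the transcription factors at 0.50. Each of the 2 libraries also had the highest macrophage, endothelial and granulocyte sums of its own group. For macrophage markers these were 1379 CPM against 1221 and 817 CPM in WT E2, and 1002 CPM against 742 to 860 CPM in ERalphaKO placebo. For endothelial markers they were 574 CPM against 507 and 321 CPM, and 416 CPM against 344 to 355 CPM. For granulocyte markers they were 1137 CPM against 5.07 and 2.82 CPM, and 16942 CPM against 25.8 to 2395 CPM. ERalphaKO placebo replicate 3 had the highest granulocyte sum and the highest muscle sum (5533 CPM) of the 12, and WT E2 replicate 3 the highest macrophage and endothelial sums. Adipocyte sums were also the highest of the group in both. Other lists differed. WT E2 replicate 3 had the highest lymphocyte and fibrocartilage sums of its group. Its plasmacytoid dendritic cell, muscle and erythroid sums were the lowest of the group (329, 207 and 21.5 CPM). ERalphaKO placebo replicate 3 had the lowest lymphocyte and fibrocartilage sums of its group (84.02 and 74258 CPM). The part of these markers in the levels of the interferon response genes was not tested.

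**Figure D2:**
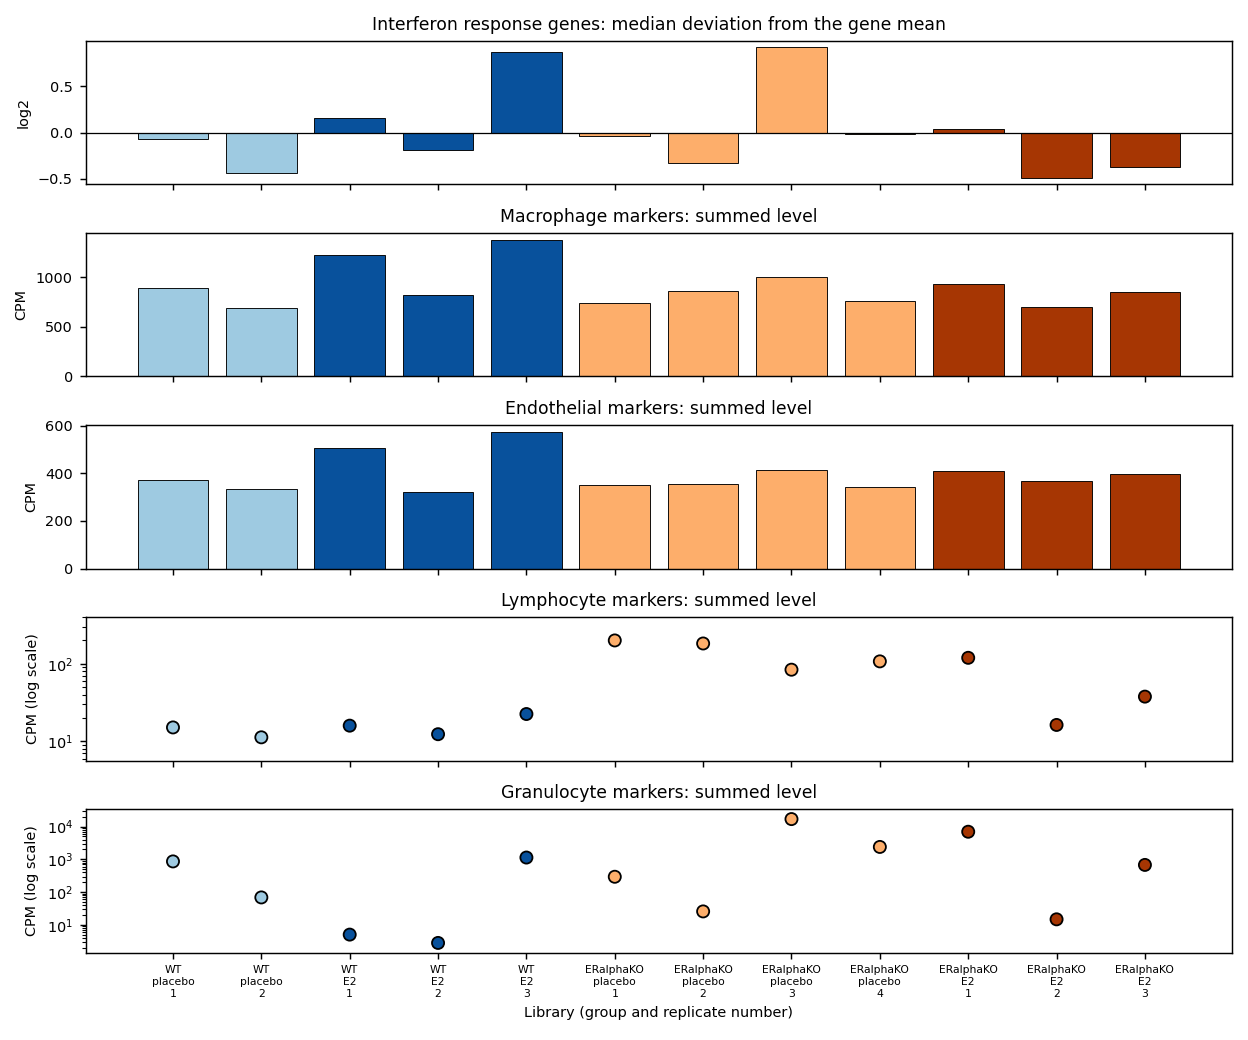
Median deviation of the 40 genes from their gene means (top, log2) and summed CPM of macrophage, endothelial, lymphocyte and granulocyte markers, for each of the 12 libraries (the lower 2 panels have log axes, colours mark the groups). Interferon response genes were highest in ERalphaKO placebo replicate 3 (0.92) and WT E2 replicate 3 (0.87), and the lymphocyte sum was at least 84.0 CPM in each ERalphaKO placebo library against at most 22.5 CPM in WT.

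Among the transcription factors, Stat2, the subunit that gives the type I complex its activation domain, stood at 33.2 and 34.5 CPM in WT placebo, 39.04, 34.2 and 60.3 CPM in WT E2, 41.3, 37.1, 43.4 and 38.1 CPM in ERalphaKO placebo and 36.7, 37.5 and 35.8 CPM in ERalphaKO E2. Irf7, which amplifies type I interferon production, stood at 11.3 and 5.83 CPM in WT placebo, 11.3, 9.08 and 25.3 CPM in WT E2, 9.64, 4.38, 18.4 and 7.32 CPM in ERalphaKO placebo and 8.13, 6.31 and 5.93 CPM in ERalphaKO E2. Both were highest in WT E2 replicate 3. Irf8, a factor of macrophage, dendritic and B cell development, departed from that order, with 6.98 and 5.97 CPM in WT placebo, 13.4, 6.35 and 19.1 CPM in WT E2, 29.3, 19.7, 26.96 and 17.8 CPM in ERalphaKO placebo and 25.4, 5.47 and 10.1 CPM in ERalphaKO E2. Its 4 ERalphaKO placebo libraries all lay above the WT placebo libraries, and the ERalphaKO E2 libraries spread over most of the range. Irf9, the DNA-binding subunit of the type I complex, ranged from 22.9 to 42.3 CPM over the 12 libraries and Irf1, a factor induced by both interferon types, from 29.5 to 63.1 CPM. Exons of Irf9 overlap those of Rnf31 on the same strand and exons of Irf7 those of Phrf1 on the other strand, so counts can be shared there.

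Of the sensors, Ddx58 encodes RIG-I, which recognises RNA with a triphosphate end, and stood at 33.4 and 29.4 CPM in WT placebo, 38.1, 30.3 and 40.3 CPM in WT E2, 33.5, 32.3, 40.1 and 35.8 CPM in ERalphaKO placebo and 38.5, 35.3 and 31.5 CPM in ERalphaKO E2. Ifih1 encodes MDA5, a sensor of long double-stranded RNA, and stood at 13.02 and 10.2 CPM in WT placebo, 14.8, 13.1 and 21.8 CPM in WT E2, 10.2, 10.6, 16.9 and 12.1 CPM in ERalphaKO placebo and 13.3, 10.9 and 12.9 CPM in ERalphaKO E2. Dhx58 encodes LGP2, a regulator of both, and stood at 12.3 and 7.69 CPM in WT placebo, 12.8, 8.33 and 16.2 CPM in WT E2, 8.86, 5.73, 13.02 and 7.84 CPM in ERalphaKO placebo and 7.65, 7.15 and 6.54 CPM in ERalphaKO E2. Ddx58 varied little between libraries, while Ifih1 and Dhx58 were highest in WT E2 replicate 3. Zbp1, a sensor of Z-form nucleic acid, ranged from 1.04 to 8.297 CPM, with its maximum in WT E2 replicate 3 and its next highest value in ERalphaKO placebo replicate 3. Ddx60, a helicase that supports RIG-I, ranged from 2.401 to 9.94 CPM and was highest in ERalphaKO E2 replicate 1 and ERalphaKO placebo replicate 3, the libraries with the highest granulocyte sums.

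In the Oas family, whose products make the second messenger that activates the nuclease RNase L, Oas1a stood at 1.82 and 1.06 CPM in WT placebo, 3.21, 2.49 and 6.61 CPM in WT E2, 1.86, 1.22, 6.51 and 2.61 CPM in ERalphaKO placebo and 1.51, 0.946 and 1.28 CPM in ERalphaKO E2. The replicate 3 libraries of WT E2 and ERalphaKO placebo were almost equal and lay above all the others. Oas2, of the same family, ranged from 1.71 to 14.7 CPM with the same 2 libraries highest. Oas3, which makes the longest chains of that messenger, ranged from 0.105 to 14.8 CPM, and its highest values (14.8, 8.61 and 3.87 CPM) fell in ERalphaKO placebo replicate 3, ERalphaKO E2 replicate 1 and WT placebo replicate 1. Oasl1, a member that restrains Irf7 translation, ranged from 0.419 to 1.82 CPM and Oasl2, a ubiquitin-like member, from 7.96 to 26.1 CPM. In the Ifit family, the Ifit1 protein binds viral RNA that lacks the host's cap methylation. Ifit1 ranged from 1.58 to 11.5 CPM and Ifit3 from 6.496 to 22.5 CPM, both highest in ERalphaKO placebo replicate 3, whereas Ifit2 kept within 17.8 to 25.8 CPM. Oas and Ifit genes have near-identical copies, so how counts were split between copies is uncertain.

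Bst2 encodes tetherin, which holds budding virions at the cell surface, and stood at 29.7 and 14.5 CPM in WT placebo, 46.4, 29.04 and 67.3 CPM in WT E2, 11.8, 12.04, 25.6 and 13.9 CPM in ERalphaKO placebo and 16.99, 13.7 and 12.6 CPM in ERalphaKO E2. The 3 WT E2 libraries lay above every ERalphaKO library of either treatment, while WT placebo replicate 1 lay among the WT E2 libraries. Mx2, a gene of the dynamin-like GTPases, stood at 0.8799 and 1.32 CPM in WT placebo, 1.56, 1.93 and 2.51 CPM in WT E2, 1.02, 0.812, 3.06 and 1.13 CPM in ERalphaKO placebo and 0.542, 0.315 and 0.46003 CPM in ERalphaKO E2. Its 3 ERalphaKO E2 libraries were the lowest of all 12. Mx1, its nuclear counterpart in mice, rested on few counts, with 0.352 and 0.293 CPM in WT placebo, 1.305, 0.659 and 1.997 CPM in WT E2, 2.45, 0.496, 3.14 and 0.885 CPM in ERalphaKO placebo and 1.205, 0 and 0.358 CPM in ERalphaKO E2. The 0 in ERalphaKO E2 replicate 2, the shallowest library, allows a level of up to 0.315 CPM (3 counts, counting error only). The inbred strain C57BL/6 carries a defective Mx1 allele, and Mx1 and Mx2 are close relatives between which counts could be split. Rsad2 encodes viperin, which makes a chain-terminating nucleotide, and stood at 6.04 and 4.21 CPM in WT placebo, 9.78, 8.61 and 15.5 CPM in WT E2, 8.14, 5.64, 14.5 and 6.11 CPM in ERalphaKO placebo and 8.07, 5.89 and 6.39 CPM in ERalphaKO E2. Each WT E2 library lay above both WT placebo libraries. Cmpk2, a nucleotide kinase next to Rsad2 on the opposite strand, ranged from 4.94 to 22.4 CPM, Isg20, an exonuclease, from 7.67 to 12.1 CPM and Rtp4, a chaperone that also limits flavivirus replication, from 3.56 to 15.4 CPM.

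Isg15, the ubiquitin-like modifier, stood at 3.99 and 2.86 CPM in WT placebo, 3.06, 3.01 and 6.91 CPM in WT E2, 3.41, 1.804, 6.82 and 2.98 CPM in ERalphaKO placebo and 3.92, 2.52 and 4.04 CPM in ERalphaKO E2. The 2 high libraries held about equal levels, and the other 10 kept within 1.80 to 4.04 CPM. Usp18, the protease that removes Isg15 and also dampens type I receptor signalling, stood at 2.05 and 1.91 CPM in WT placebo, 2.66, 1.88 and 5.12 CPM in WT E2, 2.45, 2.21, 6.04 and 2.09 CPM in ERalphaKO placebo and 2.23, 1.68 and 1.79 CPM in ERalphaKO E2, with the same 2 libraries highest. Ifi44, a protein that restrains viral replication, stood at 2.64 and 2.49 CPM in WT placebo, 4.27, 3.11 and 9.22 CPM in WT E2, 1.32, 2.71, 5.19 and 2.98 CPM in ERalphaKO placebo and 1.93, 1.79 and 1.84 CPM in ERalphaKO E2. Its 3 ERalphaKO E2 libraries lay below every WT library. Parp14, a mono-ADP-ribosyltransferase, stood at 19.7 and 18.2 CPM in WT placebo, 29.5, 21.2 and 42.5 CPM in WT E2, 26.3, 23.003, 34.01 and 26.1 CPM in ERalphaKO placebo and 28.3, 19.6 and 18.3 CPM in ERalphaKO E2. Ifi35, a partner of Nmi, ranged from 18.5 to 29.98 CPM and Xaf1, an antagonist of the apoptosis inhibitor Xiap, from 4.65 to 13.2 CPM.

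Immunity-related GTPases gather at the vacuoles of intracellular pathogens, and the Irgm proteins regulate the others. Irgm1 stood at 23.5 and 19.7 CPM in WT placebo, 30.01, 26.7 and 40.4 CPM in WT E2, 28.01, 25.03, 38.3 and 27.03 CPM in ERalphaKO placebo and 25.4, 22.3 and 21.2 CPM in ERalphaKO E2. The WT E2 libraries all lay above the WT placebo and the ERalphaKO E2 libraries. Ifi47 stood at 7.39 and 4.29 CPM in WT placebo, 5.82, 4.14 and 13.6 CPM in WT E2, 8.92, 7.62, 18.7 and 9.17 CPM in ERalphaKO placebo and 6.69, 4.42 and 4.96 CPM in ERalphaKO E2, and each ERalphaKO placebo library lay above each ERalphaKO E2 library. Iigp1, an effector GTPase, had the widest range of the group in relative terms, 4.31 to 30.7 CPM, with 30.7 CPM in WT E2 replicate 3 and 16.3 CPM in ERalphaKO placebo replicate 3 as its highest values. Irgm2, the regulator next to Igtp, ranged from 23.003 to 50.8 CPM and Igtp, itself one of the Irgm proteins, from 6.68 to 29.98 CPM. Exons of Igtp and Irgm2 overlap on the same strand, as do those of Ifi47 and Olfr56.

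In class I antigen processing, B2m, the light chain of every class I molecule, stood at 782 and 574 CPM in WT placebo, 953, 755 and 1306 CPM in WT E2, 723, 723, 810.5 and 640.1 CPM in ERalphaKO placebo and 765, 585 and 645 CPM in ERalphaKO E2. It was highest in WT E2 replicate 3, and WT E2 replicate 2 lay below WT placebo replicate 1. Psmb8, a catalytic subunit of the immunoproteasome, stood at 21.4 and 13.7 CPM in WT placebo, 22.6, 13.2 and 42.7 CPM in WT E2, 21.6, 21.3, 44.2 and 21.8 CPM in ERalphaKO placebo and 25.8, 14.4 and 14.4 CPM in ERalphaKO E2. Tap1, which carries peptides into the endoplasmic reticulum, stood at 21.2 and 17.5 CPM in WT placebo, 29.3, 18.97 and 46.3 CPM in WT E2, 25.3, 22.8, 37.3 and 23.3 CPM in ERalphaKO placebo and 29.4, 17.2 and 19.6 CPM in ERalphaKO E2. Both were highest in the replicate 3 libraries of WT E2 and ERalphaKO placebo, as was Psmb9, another immunoproteasome subunit, which ranged from 4.19 to 18.7 CPM. Psmb9 and Tap1 overlap by 212 bases on opposite strands, and the strand of the libraries is not given in the sources used here.

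**Figure D3:**
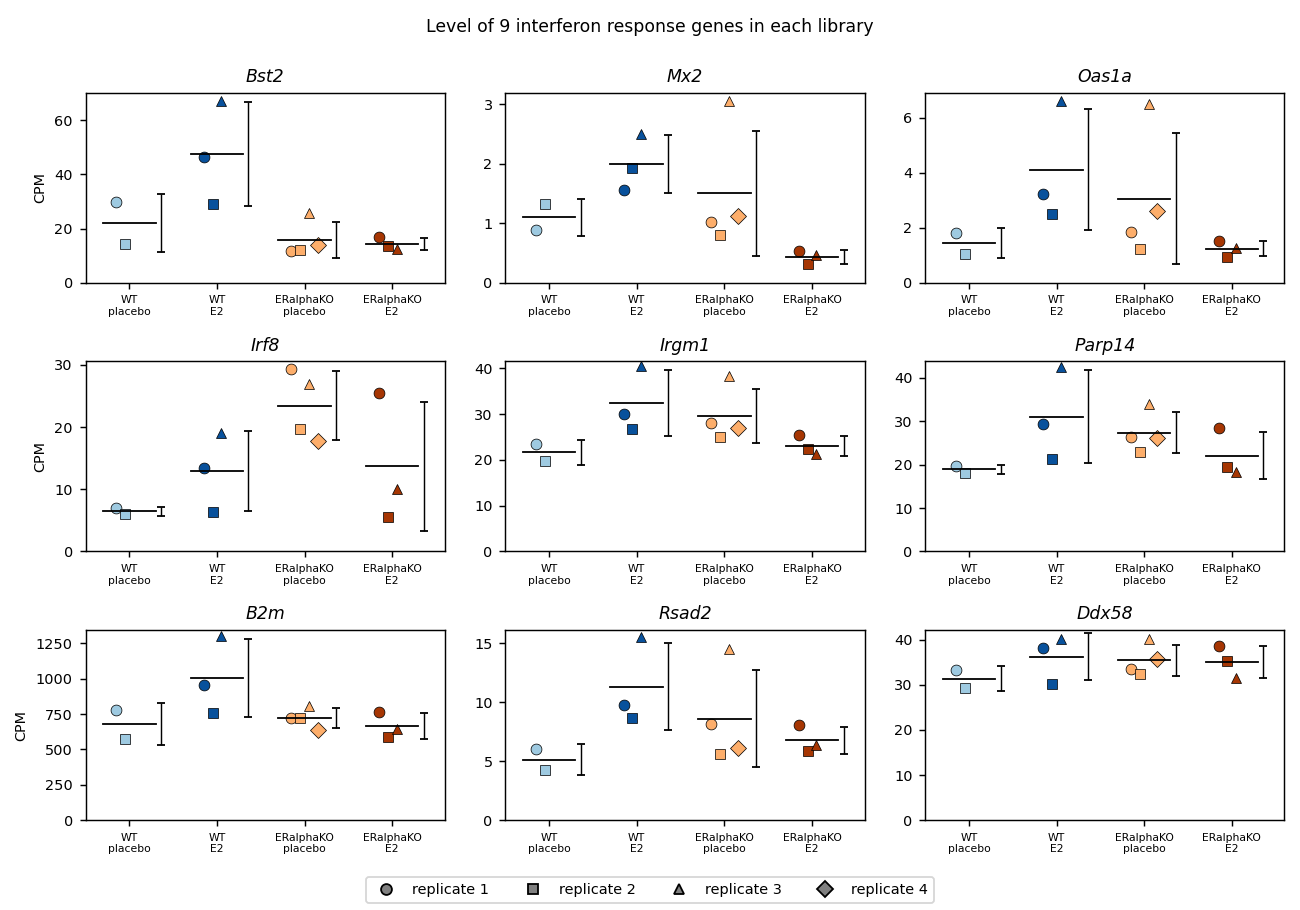
CPM of 9 of the genes in each library (symbols by replicate number, linear axes from 0), with the group mean as a horizontal line and the SD as a bar beside the points. Replicate 3 (triangles) is the highest of WT E2 in each of the 9 panels, and the 3 WT E2 libraries of Bst2 (29.0 to 67.3 CPM) all lie above the ERalphaKO libraries (11.8 to 25.6 CPM).

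With E2 in WT mice, 37 of the 40 genes had a higher fitted mean than with placebo, where 49.1% of all genes tested did, and the median difference was 0.57 (log2), against -0.0043 over all genes. For Oas1a, Rsad2 and Bst2 the fitted means with E2 were 2.87, 2.21 and 2.16 times those under placebo. None of the 40 passed edgeR's quasi-likelihood test with Benjamini-Hochberg adjustment over all genes at 0.05, which 0.458% of all genes did. At an unadjusted p under 0.05 there were 6 of the 40 (15%), all higher with E2 (Irgm1, Rsad2, B2m, Parp14, Bst2 and Oas1a), against 8.14% of all genes, and DESeq2 called 0 of the 40 and 1.64% of all genes. The 2 groups did not overlap, E2 above placebo, in 13 of the 40 (32.5%), against 13.2% of all genes.

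Irgm1 had the lowest p of the 40, with 32.4 ± 7.14 CPM (SD, n = 3) with E2 against 21.6 ± 2.63 CPM (SD, n = 2) with placebo and a log2 difference of 0.58 ± 0.21 (SE, edgeR adjusted p = 0.472). Among the antiviral effectors all 7 had positive differences, led by Rsad2 at 1.14 ± 0.42 (SE, edgeR adjusted p = 0.477), and Bst2 followed at 1.11 ± 0.44 (SE, edgeR adjusted p = 0.543). Of the Ifit and Oas genes 6 of 8 were positive, with Oas1a at 1.52 ± 0.68 (SE, edgeR adjusted p = 0.612). Oas3 (-0.94) and Ifit3 (-0.090) were negative there, as was Ddx60 (-0.18) among the sensors, of which 4 of 5 were positive. The 4 class I genes were all positive, with B2m at 0.57 ± 0.22 (SE, edgeR adjusted p = 0.542). All 4 other induced genes were positive too, led by Parp14 at 0.72 ± 0.28 (SE, edgeR adjusted p = 0.542). The 5 transcription factors gave a median of 0.45, with the lowest p in Stat2, 0.39 ± 0.19 (SE, edgeR adjusted p = 0.636), the sensors a median of 0.32, with Ifih1 at 0.52 ± 0.26 (SE, edgeR adjusted p = 0.645), and Usp18 stood at 0.70 ± 0.52 (SE, edgeR adjusted p = 0.804).

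Without WT E2 replicate 3 the median of the 40 genes was 0.18, with 29 of 40 positive, and edgeR again called none. Rsad2 gave 0.85 ± 0.42 (SE, adjusted p = 0.859), Bst2 0.77 ± 0.43 (SE, adjusted p = 0.924), Irgm1 0.39 ± 0.20 (SE, adjusted p = 0.859) and B2m 0.33 ± 0.19 (SE, adjusted p = 0.931) by edgeR without that library. These genes were picked by a low p in all libraries, which favours genes also high in the other WT E2 libraries. No conclusion is therefore drawn from them against the median. Parp14 and Oas1a, also under an unadjusted p of 0.05, are not given for this setting. The macrophage markers moved in the same direction as the genes, with 11 of 12 positive, a median of 0.86 and summed levels of 893 and 695 CPM in WT placebo and 1221, 817 and 1379 CPM in WT E2. Of these 12, 8 lay under an unadjusted p of 0.05, edgeR called 0 and DESeq2 called 4 (Emr1, Mrc1, C1qb and C1qc). The endothelial markers were positive in 10 of 10, with a median of 0.38, 1 of them at an unadjusted p under 0.05. Other lists went the other way, muscle markers with 10 of 11 negative and adipocyte markers with 6 of 7 negative (median -4.25). Of these, 0 and 5 had an unadjusted p under 0.05, with 0 called by edgeR and 0 and 1 (Adipoq) by DESeq2. Granulocyte, lymphocyte, plasmacytoid dendritic cell, erythroid and fibrocartilage markers went both ways. The part of these markers in the difference was not tested.

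With E2 in ERalphaKO mice the genes lay the other way: 39 of 40 had a lower fitted mean than with placebo, against 50.0% of all genes, with a median of -0.34 against 0 over all genes. None passed edgeR's adjusted threshold, as none (0%) of all genes did, and DESeq2 called 0 of the 40 and 0% of all genes as well. At an unadjusted p under 0.05 there were 3 (7.5%), all lower (Mx2, Ifi47 and Oas1a), against 5.70% of all genes. The groups did not overlap, E2 below placebo, in 2 of the 40 (5%, Mx2 and Ifi47), against 3.09%, so both shares were near those of all genes. Mx2 held 0.439 ± 0.115 CPM (SD, n = 3) with E2 against 1.504 ± 1.05 CPM (SD, n = 4) with placebo, a log2 difference of -1.74 ± 0.51 (SE, edgeR adjusted p = 0.848).

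Ifi47 gave -1.05 ± 0.44 (SE, edgeR adjusted p = 0.852) and Oas1a -1.28 ± 0.58 (SE, edgeR adjusted p = 0.876). The immunity-related GTPases, all 5 negative, had a median of -0.75, the class I genes, all 4 negative, -0.44, with Psmb8 at -0.58 ± 0.42 (SE, edgeR adjusted p = 0.976). The transcription factors had a median of -0.14, with Irf8 at -0.76 ± 0.47 (SE, edgeR adjusted p = 0.9502), and the sensors one of -0.014, with Dhx58 at -0.32 ± 0.30 (SE, edgeR adjusted p = 0.991). Usp18 gave -0.75 ± 0.44 (SE, edgeR adjusted p = 0.937) and Ifi44 -0.72 ± 0.46 (SE, edgeR adjusted p = 0.9502). The only positive difference was that of Ddx60, 0.51 ± 0.53 (SE). Without ERalphaKO placebo replicate 3 the median over the 40 genes was -0.055, with 23 of 40 negative. Mx2 without it gave -1.12 ± 0.34 (SE, adjusted p = 0.918) and Ifi47 -0.67 ± 0.40 (SE, adjusted p = 0.918). Granulocyte markers were lower with E2 in 9 of 11 and muscle markers in 11 of 11 (3 and 10 at an unadjusted p under 0.05, 0 called by edgeR or DESeq2). Lymphocyte markers were lower in 7 of 9, with a median of -1.24, 1 at an unadjusted p under 0.05 and 0 called by either tool. They summed to 84.02 to 200.2 CPM with placebo and 16.3 to 119.6 CPM with E2. Macrophage markers were lower in 9 of 12, adipocyte markers in 6 of 7 and fibrocartilage markers in 8 of 12. Other lists leaned the other way. Endothelial markers were higher in 8 of 10, erythroid markers in 3 of 3 and plasmacytoid dendritic cell markers in 4 of 6. Of these, 0, 1 and 1 had an unadjusted p under 0.05, and edgeR and DESeq2 called 0. The part of these lists in the difference was not tested.

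Between genotypes under placebo, 35 of the 40 genes had a higher fitted mean in ERalphaKO than in WT, against 52.1% of all genes, with a median of 0.45 against 0.010 over all genes. None was called by edgeR, where 0.0135% of all genes were. At an unadjusted p under 0.05 there were 3 (7.5%), all higher in ERalphaKO (Irf8, Mx1 and Irgm1), near the 8.93% of all genes. The groups did not overlap, ERalphaKO above WT, in 10 of the 40 (25%), against 10.5% of all genes. Irf8 had the lowest p of the 40: 23.4 ± 5.55 CPM (SD, n = 4) in ERalphaKO against 6.48 ± 0.714 CPM (SD, n = 2) in WT, a log2 difference of 1.86 ± 0.58 (SE, edgeR adjusted p = 0.441). DESeq2 called Irf8 alone of the 40, where it called 0.985% of all genes, with the same difference (1.86 ± 0.51 (SE, adjusted p = 0.0312)). The authors' deposited table also has Irf8 alone of the 40 called, with a log2 fold change of 1.76 and an adjusted p of 2.13e-10, where 1.82% of its genes with an adjusted p were called. The count of 1 in 40 is thus near the share of all genes by either source.

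With ERalphaKO placebo replicate 3 left out, the difference of Irf8 was 1.78 ± 0.61 (SE, adjusted p = 0.394) by edgeR. For Irf8 that library held only 1.21 times the mean of the others of its group. Leaving it out could thus move the difference little, and no conclusion is drawn from the value. The lymphocyte markers differed between the placebo groups in the same direction and summed to 15.1 and 11.3 CPM in WT placebo, 15.96, 12.4 and 22.5 CPM in WT E2, 200.2, 183, 84.02 and 108 CPM in ERalphaKO placebo and 119.6, 16.3 and 37.8 CPM in ERalphaKO E2. Within WT placebo, WT E2 and ERalphaKO E2 the libraries had the same order by lymphocyte sum as by Irf8 level. The macrophage, endothelial and granulocyte sums had that order there too, and these groups hold only 2 or 3 libraries. In ERalphaKO placebo the order differed: replicate 3 had the lowest lymphocyte sum of its group and the second highest Irf8 level. B cell genes were among the markers, and Cd79a, part of the B cell receptor, stood at 36.6, 37.98, 12.1 and 17.98 CPM in ERalphaKO placebo and at 1.11 and 0.623 CPM in WT placebo, while the T cell gene Cd3e was at or under 0.194 CPM in every library. All 9 lymphocyte markers tested were positive in this comparison, with 5 at an unadjusted p under 0.05, 0 called by edgeR and 4 called by DESeq2 (Cd79a among them). All 11 granulocyte markers were positive too, with 3, 0 and 0, and 10 of 11 muscle markers, with 0, 0 and 0. Erythroid markers were positive in 3 of 3 and macrophage markers in 9 of 12, while adipocyte markers were negative in 5 of 7. Endothelial, plasmacytoid dendritic cell and fibrocartilage markers went both ways. The part of these lists in the Irf8 difference was not tested.

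The other named genes of the placebo comparison were Mx1 at 2.42 ± 1.05 (SE, edgeR adjusted p = 0.548), Irgm1 at 0.46 ± 0.20 (SE, edgeR adjusted p = 0.557) and Parp14 at 0.53 ± 0.27 (SE, edgeR adjusted p = 0.603). All 8 Ifit and Oas genes were positive, with Oas1a at 1.10 ± 0.65 (SE, edgeR adjusted p = 0.664), as were all 5 GTPases, all 4 class I genes, with Tap1 at 0.49 ± 0.34 (SE, edgeR adjusted p = 0.724), and Usp18 at 0.70 ± 0.50 (SE, edgeR adjusted p = 0.7301). Ddx58 had the lowest p of the sensors, 0.18 ± 0.13 (SE, edgeR adjusted p = 0.748). Bst2 was the largest of the 5 negative ones, at -0.47 ± 0.40 (SE). Without ERalphaKO placebo replicate 3 the median over the 40 was 0.11, with 24 of 40 positive.

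Under E2 the order of the genotypes was the reverse: 34 of the 40 genes had a lower fitted mean in ERalphaKO than in WT, against 50.8% of all genes, with a median of -0.49 against -0.0031 over all genes. None of the 40 passed the adjusted threshold in edgeR, where 1.10% of all genes did. At an unadjusted p under 0.05 there were 9 (22.5%), all lower in ERalphaKO (Bst2, Mx2, Ifi44, B2m, Oas1a, Xaf1, Irgm1, Dhx58 and Irf7), against 11.5% of all genes. The groups did not overlap, ERalphaKO below WT, in 10 of the 40 (25%), against 8.94%. This comparison shares the WT E2 libraries with that of E2 in WT and the ERalphaKO E2 libraries with that of E2 in ERalphaKO, so their directions are not independent.

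Bst2 came closest to the threshold, with 14.4 ± 2.297 CPM (SD, n = 3) in ERalphaKO E2 against 47.6 ± 19.2 CPM (SD, n = 3) in WT E2 and a log2 difference of -1.72 ± 0.39 (SE, edgeR adjusted p = 0.0725). Mx2 held 0.439 ± 0.115 CPM against 1.998 ± 0.481 CPM (SD, n = 3 each), a difference of -2.14 ± 0.53 (SE, edgeR adjusted p = 0.103). Whether either was called depended on the setting. Bst2 gave -1.71 ± 0.37 (SE, adjusted p = 0.000419) by DESeq2 and, by edgeR, -1.39 ± 0.39 (SE, adjusted p = 0.212) without WT E2 replicate 3, -1.72 ± 0.32 (SE, adjusted p = 0.0321) without ERalphaKO placebo replicate 3 and -1.37 ± 0.29 (SE, adjusted p = 0.0788) without both. Mx2 gave -2.14 ± 0.62 (SE, adjusted p = 0.0218) by DESeq2 and, by edgeR, -1.94 ± 0.58 (SE, adjusted p = 0.245), -2.13 ± 0.34 (SE, adjusted p = 0.01597) and -1.93 ± 0.35 (SE, adjusted p = 0.04802) with the same libraries left out. DESeq2 called 2 of the 40 (5%) and 3.06% of all genes. EdgeR called 2 of the 40 (5%) and 1.40% of all genes without ERalphaKO placebo replicate 3, and 1 of the 40 and 0.894% of all genes without both. The differences of these 2 genes kept their direction and most of their size without the high libraries. Both genes were picked by a low p in all libraries, which favours genes that also differ in the remaining ones. No conclusion is therefore drawn from them against the median of the 40, which was -0.088 without both libraries. The authors' deposited table has 4 of the 40 genes lower at an adjusted p under 0.05, Bst2 (-1.62, adjusted p = 1.06e-06), Mx2 (-1.80, 0.00416), Oas1a (-1.47, 0.0214) and Ifi44 (-1.38, 0.0270), where 3.75% of the genes with an adjusted p in that table were called in either direction.

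By role, all 4 other induced genes were lower in ERalphaKO, with Ifi44 at -1.57 ± 0.49 (SE, edgeR adjusted p = 0.209), and all 5 GTPases, with Irgm1 at -0.49 ± 0.19 (SE, edgeR adjusted p = 0.323). All 4 class I genes were lower as well, with B2m at -0.60 ± 0.20 (SE, edgeR adjusted p = 0.245), and 4 of 5 transcription factors, with Irf7 at -1.16 ± 0.52 (SE, edgeR adjusted p = 0.4298). Among the sensors 4 of 5 were lower, with Dhx58 at -0.81 ± 0.32 (SE, edgeR adjusted p = 0.346). The Ifit and Oas families were divided, 5 of 8 lower with a median of -0.090, from Oas1a at -1.70 ± 0.61 (SE, edgeR adjusted p = 0.295) to Oas3 at 1.73 ± 1.45 (SE). Usp18 gave -0.75 ± 0.47 (SE, edgeR adjusted p = 0.603). Without WT E2 replicate 3 the median over the 40 genes was -0.10, with 24 of 40 negative. The macrophage markers were lower in ERalphaKO in 11 of 12, with a median of -0.79 and a summed level of 928, 701 and 852 CPM in ERalphaKO E2, and the endothelial markers in 10 of 10. At an unadjusted p under 0.05 there were 7 and 2 of them, with 0 called by edgeR and 5 and 1 by DESeq2. Muscle markers were lower in 11 of 11, with 2 at an unadjusted p under 0.05 and 0 called by either tool. Other lists went the other way. Granulocyte markers were higher in ERalphaKO in 11 of 11 (median 2.43), lymphocyte markers in 8 of 9 (1.82) and erythroid markers in 3 of 3 (4.02). Of these lists 2, 4 and 2 markers had an unadjusted p under 0.05, with 0 called by edgeR and 1, 4 and 0 by DESeq2. Plasmacytoid dendritic cell, adipocyte and fibrocartilage markers went both ways. The part of these lists in the difference was not tested.

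**Figure D4:**
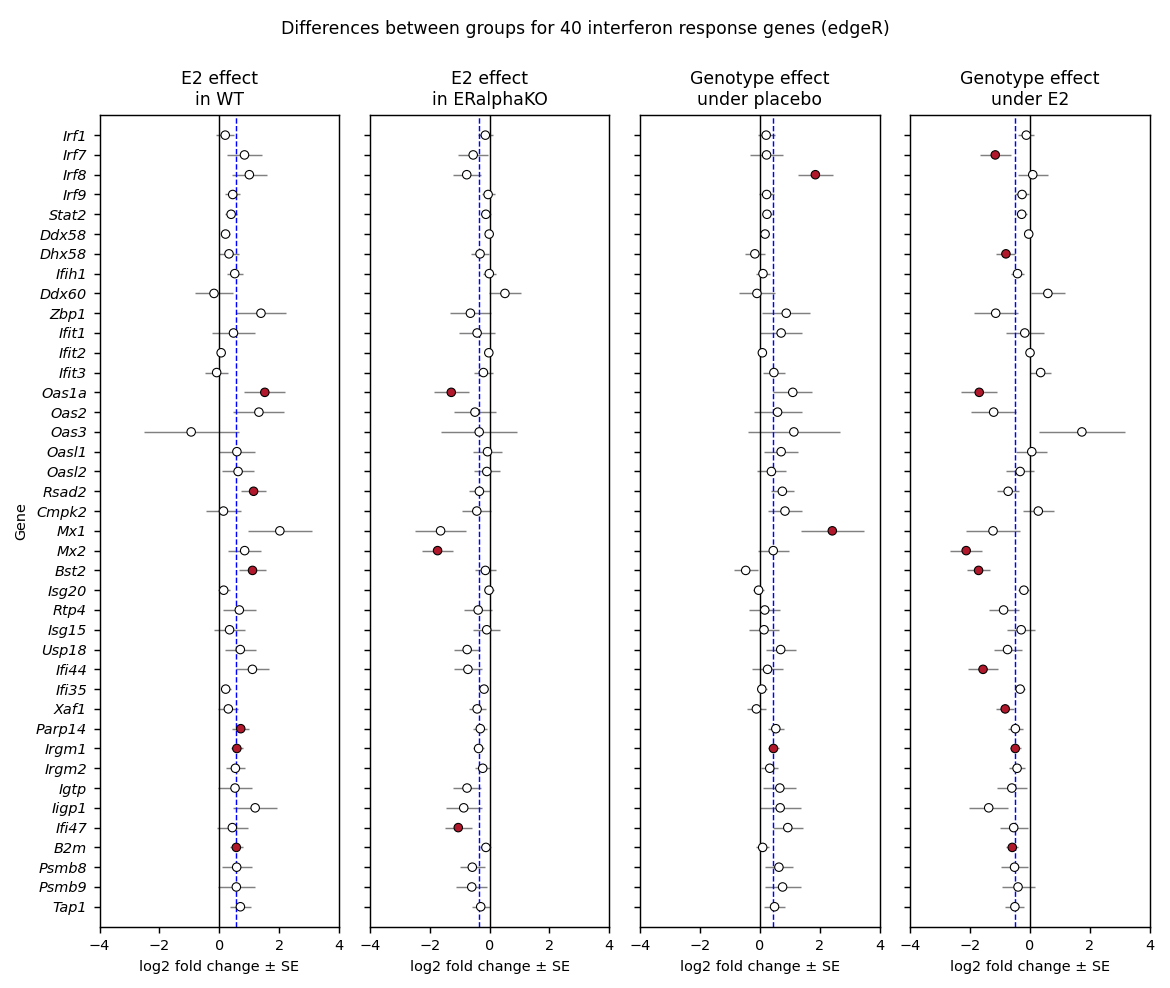
log2 fold change ± SE from edgeR for each of the 40 genes in the 4 comparisons between groups (filled red: unadjusted p under 0.05, dashed line: median of the 40). The medians are 0.57 for E2 in WT, -0.34 for E2 in ERalphaKO, 0.45 for genotype under placebo and -0.49 for genotype under E2, and none of the 40 passed the adjusted threshold in any panel.

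The E2 effect itself was compared between genotypes with the interaction term, the effect in ERalphaKO minus that in WT. It was negative for 38 of the 40 genes, against 52.8% of all genes, with a median of -0.92 (log2) against -0.016 over all genes. No gene of the 40 was called by edgeR, where 0.0539% of all genes were, nor by DESeq2, which called 0.644% of all genes. At an unadjusted p under 0.05 there were 10 (25%), all negative, against 6.78% of all genes. Irgm1 gave -0.95 ± 0.27 (SE, edgeR adjusted p = 0.4804), Mx2 -2.58 ± 0.75 (SE, edgeR adjusted p = 0.484), Oas1a -2.80 ± 0.90 (SE, edgeR adjusted p = 0.525), Rsad2 -1.49 ± 0.54 (SE, edgeR adjusted p = 0.618) and Bst2 -1.25 ± 0.56 (SE, edgeR adjusted p = 0.735). Parp14, Mx1, Ifi44, B2m and Irf8 were the other 5. Both high libraries enter this term with the same sign, one in the WT E2 mean and the other in the ERalphaKO placebo mean. The median was -0.57 without the first, -0.59 without the second and -0.18 without both, with 31 of 40 negative. Without both, Irgm1 gave -0.61 ± 0.16 (SE, adjusted p = 0.495) and Mx2 -1.76 ± 0.49 (SE, adjusted p = 0.527) by edgeR, and 0 of the 40 were called. Some lists of cell type markers were mostly negative in this term too, the macrophage list in 11 of 12 with a median of -0.94, the endothelial list in 10 of 10 with -0.26, the lymphocyte list in 8 of 9 with -0.92 and the muscle list in 11 of 11 with -5.09. Of these, 6, 1, 0 and 1 had an unadjusted p under 0.05, and edgeR and DESeq2 called 0. Other lists were mixed or positive. Granulocyte markers were negative in 7 of 11 and plasmacytoid dendritic cell markers in 4 of 6. Erythroid markers were positive in 3 of 3, adipocyte markers in 5 of 7 and fibrocartilage markers in 7 of 12. The part of these lists in the interaction was not tested.

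**Figure D5:**
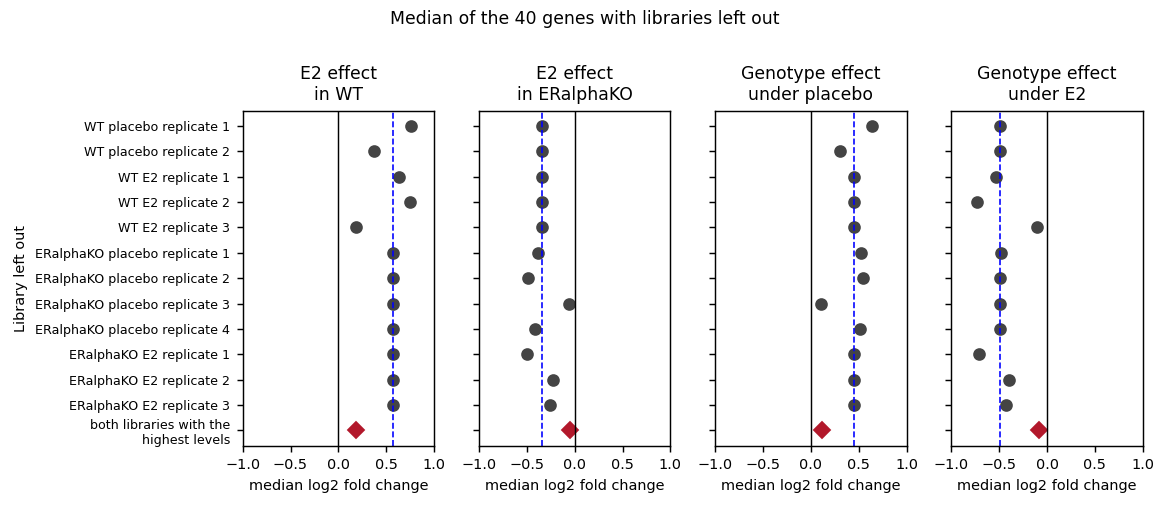
Median log2 fold change of the 40 genes when 1 library is left out (circles, 1 row per library) or the 2 libraries with the highest levels are left out together (diamonds), for the 4 comparisons between groups, with the value from all 12 libraries as a dashed line. Leaving out WT E2 replicate 3 moves the medians of E2 in WT to 0.18 and of genotype under E2 to -0.10, and leaving out ERalphaKO placebo replicate 3 moves those of E2 in ERalphaKO to -0.055 and of genotype under placebo to 0.11.

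Upstream of these genes, the interferons themselves were at the limit of detection. Of the 19 interferon genes counted, 15 had no read in any library and none passed the filter. A count of 0 allows a level of up to 0.1099 to 0.315 CPM (3 counts, by library). Ifnb1 had 1 count in all, Ifng 4, Ifnk 8 and Ifnz 23. The 6 receptor genes in the table were all tested and none was called in any comparison, with 0 at an unadjusted p under 0.05 in edgeR and 0 called by DESeq2, and the lowest p for E2 in WT was that of Ifnar2, 0.15 ± 0.11 (SE, edgeR adjusted p = 0.803). Of 13 genes that induce interferons edgeR called none, and 11 had positive differences with E2 in WT, 1 of them at an unadjusted p under 0.05. That gene was Tlr7, an endosomal receptor for single-stranded RNA and also called by DESeq2, at 5.34 and 3.74 CPM in WT placebo and 13.5, 8.61 and 17.003 CPM in WT E2, 1.53 ± 0.37 (SE, edgeR adjusted p = 0.169).

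In the relay from receptor to nucleus, edgeR called 1 of 11 genes, in 1 comparison, and DESeq2 the same gene in 3. Jak1, the kinase shared by both interferon receptor types, stood at 199 and 197 CPM in WT placebo, 314, 279 and 317 CPM in WT E2, 195, 206, 205 and 197 CPM in ERalphaKO placebo and 241, 181 and 209.9 CPM in ERalphaKO E2. Each WT E2 library lay above all the others. Jak1 was lower in ERalphaKO than in WT under E2, -0.52 ± 0.10 (SE, edgeR adjusted p = 0.0363), and lay just above the threshold for E2 in WT, 0.61 ± 0.11 (SE, edgeR adjusted p = 0.0505). DESeq2 called Jak1 in both and in the interaction. Among 15 further class I genes, 14 had positive differences with E2 in WT and all 15 negative ones for genotype under E2, and edgeR called 1 of them, in the latter comparison. That gene was Nlrc5, the transactivator of class I genes, at 11.5 and 10.2 CPM in WT placebo, 32.9, 19.96 and 50.5 CPM in WT E2, 15.6, 14.3, 18.3 and 14.5 CPM in ERalphaKO placebo and 13.4, 11.2 and 9.56 CPM in ERalphaKO E2. Its 3 WT E2 libraries lay above the 9 others, with -1.59 ± 0.28 (SE, edgeR adjusted p = 0.0249) for genotype under E2 and 1.67 ± 0.32 (SE, edgeR adjusted p = 0.0587) for E2 in WT. DESeq2 called Nlrc5 in both, and H2-K1, H2-D1 and H2-Q4, class I heavy chains, for genotype under E2.

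The Gbp genes, another interferon-induced family, were divided in the same libraries. Of 9 tested, Gbp4, Gbp6, Gbp8 and Gbp9 rose with E2 in WT by edgeR (adjusted p of 0.00344 to 0.0361) and were lower in ERalphaKO under E2, and Gbp4 and Gbp8 were called in the interaction. DESeq2 called Gbp4, Gbp6, Gbp8 and Gbp9 in the interaction, and Gbp9 for genotype under placebo. Gbp10, also tested, had 70 counts in all. It stood at 0 and 0.0366 CPM in WT placebo, 1.46, 0.941 and 0.512 CPM in WT E2 and 0 in each ERalphaKO E2 library. DESeq2 called Gbp10 for genotype under E2. Gbp4 stood at 7.68 and 5.31 CPM in WT placebo, 64.2, 36.2 and 68.3 CPM in WT E2, 7.96, 6.68, 10.7 and 7.36 CPM in ERalphaKO placebo and 6.51, 4.42 and 5.78 CPM in ERalphaKO E2, so that each WT E2 library lay above all the others. Gbp2, Gbp3, Gbp5 and Gbp7 were not called in any comparison by edgeR or DESeq2, and 0 of them had an unadjusted p under 0.05. Gbp2 stood at 23.8 and 19.6 CPM in WT placebo, 20.7, 23.3 and 30.1 CPM in WT E2, 20.9, 14.1, 28.4 and 21.4 CPM in ERalphaKO placebo and 19.03, 17.9 and 19.1 CPM in ERalphaKO E2. Its 2 highest libraries were WT E2 replicate 3 and ERalphaKO placebo replicate 3, as for Gbp3, Gbp5, Gbp7 and 28 of the 40 genes. The difference between the families was not tested.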

How the data were processed

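Polyadenylated RNA of 12 libraries in 4 groups was sequenced on Illumina HiSeq instruments, per the labels' protocols. The submitters' processing notes name bcl2fastq 2.17, TopHat and build mm9. The TopHat version, counter, annotation and strand setting are not given in the sources used here. Every test used the counts per gene symbol that the authors deposited. Their deposited comparison tables give a log2 fold change, its standard error and a p-value, raw and adjusted, for each gene.

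Genes that passed filterByExpr by group (minimum count 10) were kept, 14832 of 23284. The model was edgeR's (4.0.16, R 4.3.3) quasi-likelihood fit after scaling by the trimmed mean of M values, with 1 mean per group over all 12 libraries (8 residual degrees of freedom) and 5 contrasts. P-values were adjusted by Benjamini-Hochberg over all genes tested, with a threshold of 0.05. Standard errors are the absolute log2 fold change over the square root of F. Log2 CPM used a prior count of 2. The alternatives were DESeq2 1.42.0, other size factors, other filters, the compared groups alone, a replicate block and libraries left out.

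The 40 members and all lists were chosen with earlier results of these data known. Named were members past the threshold and, per role group and comparison of 2 groups, the member with the lowest p. Of other pathway lists, genes past the threshold or with the lowest p for E2 in WT were named. Others in the text were chosen after their values were seen. Results of some list genes are not reported here. Exon overlaps come from GENCODE M21. Marker lists served for summed levels. Plasmacytoid dendritic cell markers, of which Bst2 is one, summed to 284 to 383 CPM in every library, adipocyte markers to 11.4 to 90.6 CPM and erythroid markers to 21.5 to 135 CPM.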

Additional observations from a re-analysis of the deposited data

Results flagged for a closer look

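In 9 of the 40 genes, ERalphaKO placebo replicate 3 lay farther from the other 3 libraries of its group than Dixon's 95% critical value for 4 samples allows. It was the highest of the group in each of them. The genes were Ddx60 (7.17 CPM against 2.63 to 2.82 CPM in the other 3), Oas3 (14.8 CPM against 0.316 to 2.53 CPM in the other 3), Mx2 (3.06 CPM against 0.812 to 1.13 CPM in the other 3), Bst2 (25.6 CPM against 11.8 to 13.9 CPM in the other 3), Usp18 (6.04 CPM against 2.09 to 2.45 CPM in the other 3), Ifi35 (29.98 CPM against 20.3 to 20.9 CPM in the other 3), Ifi47 (18.7 CPM against 7.62 to 9.17 CPM in the other 3), Psmb8 (44.2 CPM against 21.3 to 21.8 CPM in the other 3) and Psmb9 (18.7 CPM against 8.14 to 8.45 CPM in the other 3). Chance flags about 1 in 20 groups. The share flagged over all genes tested was not computed, and this library was the highest of its group in 37.4% of them. The 9 of 40 therefore cannot be read as particular to these genes. That group was the only one of 4 or more libraries, so the others were not examined in this way. The 9 genes come from the same library and are not independent of each other. The granulocyte markers of that library summed to 16942 CPM and its muscle markers to 5533 CPM, and their part was not tested.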

How the results depend on the processing

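No gene of the 40 was called by edgeR with other size factors, no low-count filter, a filter of 1 CPM in 2 libraries or the compared groups alone. For genotype under placebo DESeq2 called 1 higher (Irf8). For genotype under E2 the number lower was 2 by DESeq2 (Mx2 and Bst2), 0 to 2 with 1 library left out (1 without WT E2 replicate 2, Bst2; 2 without ERalphaKO placebo replicate 3, Mx2 and Bst2) and 1 (Mx2) without both high libraries, a setting chosen after seeing the data. Over all genes these 4 settings called 491, 236, 206 and 131. The interaction median was -0.18 without both. With 1 library left out the medians ran from 0.18 to 0.76 for E2 in WT, -0.49 to -0.055 for E2 in ERalphaKO, 0.11 to 0.64 for genotype under placebo, -0.73 to -0.10 for genotype under E2 and -1.13 to -0.57 for the interaction. Where that leaves 1 WT placebo library, it is assumed to vary like the other groups. Without the 2 granulocyte-rich libraries (ERalphaKO placebo replicate 3 and ERalphaKO E2 replicate 1) the medians were 0.56, -0.20, 0.12, -0.70 and -0.77, in that order. No median changed sign under any setting run, and the cause of the moved calls was not tested. Genes of few counts, such as Mx1, are limited by depth.

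The labels number the replicates in each group, and the correlation of deviations from the group means over 15 pairs with the same number ran from -0.33 to 0.50, with 9 over 0.1, so the numbers were not taken as pairs. With the replicate block the medians were 0.28, -0.29, 0.13, -0.38 and -0.59, and 0 of the 40 genes were called; over all genes the calls were 18, 0, 0, 62 and 3, against 68, 0, 2, 163 and 8 without it.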
